A study of Saccharomyces cerevisiae with 7 samples.

Results

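The 40 genes described here encode nuclear-encoded subunits of the mitochondrial respiratory chain and ATP synthase of the budding yeast Saccharomyces cerevisiae. They were chosen by symbol, and all 40 had a row in the deposited nascent RNA table of 5732 genes. Nascent RNA is the RNA still held by RNA polymerase II, so its reads follow transcription more closely than those of total RNA. The 4 conditions were 39 °C with 1 µM rapamycin, 39 °C without it, 30 °C with 1 µM rapamycin and 30 °C without it. All 4 used strain DPY1283, with the alleles Hsf1-AA and Rpb3-FLAG, and the labels list 1 sample for each. Hsf1 is the transcription factor that drives chaperone genes, and AA is read here as an anchor-away tag, with which rapamycin tethers Hsf1 outside the nucleus. Rpb3 is a subunit of RNA polymerase II. The labels name no change that would make the strain insensitive to rapamycin and no strain without the tag, so an effect of losing nuclear Hsf1 and a direct effect of the drug cannot be told apart. For these 4 samples the time at 39 °C or in the drug is not given in the sources read.

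The respiratory chain passes electrons from NADH and succinate to oxygen and pumps protons across the inner mitochondrial membrane, and ATP synthase uses the returning protons to make ATP. Budding yeast has no proton-pumping complex I and uses NADH dehydrogenases made of separate polypeptides in its place. In this yeast glucose represses respiratory genes, and the Hap2/3/4/5 complex and the heme-responsive factor Hap1 are known activators of many of them. Some catalytic core subunits of the cytochrome complexes and of the membrane part of ATP synthase are encoded in mitochondrial DNA, which RNA polymerase II does not transcribe. Those genes are left aside.

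Each gene has 1 normalized read count per condition, which the authors averaged over libraries. With no replicate values, nothing below could be tested, and differences are given as sizes. Higher and lower genes are counted past a 2-fold limit, a log2 ratio of 1 or -1 on the log2(value + 2.851) scale. This scale understates changes of genes with low values. The ± after a log2 ratio is a standard error from counting alone, and it covers no variation between cultures. The background, called the kept genes, is the 4585 genes whose mean reached 14.442, among them all 40 subunit genes. The fitted read totals behind the columns were lowest at 39 °C with rapamycin, near 300000 and 205000 reads for the 2 averaged libraries, and highest at 30 °C without rapamycin, near 794000 and 372000. At a value of 100 normalized reads the counting error was 9.03% at 39 °C with rapamycin and 6.11% at 30 °C without it. A change in every cell and a change in some of the cells cannot be told apart.

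Together the subunit genes took a larger part of nascent transcription at 39 °C than at 30 °C, and the largest part at 39 °C with rapamycin. Their summed reads were 2.04% of the column total at 39 °C with rapamycin, 1.11% at 39 °C without it, 0.856% at 30 °C with rapamycin and 0.851% at 30 °C without it. Of the 40 genes, 37 had their highest value at 39 °C with rapamycin. Among all 4585 kept genes this was so for 22.3%. The 3 exceptions were NDE1, NDE2 and COX5B.

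**Figure D1:**
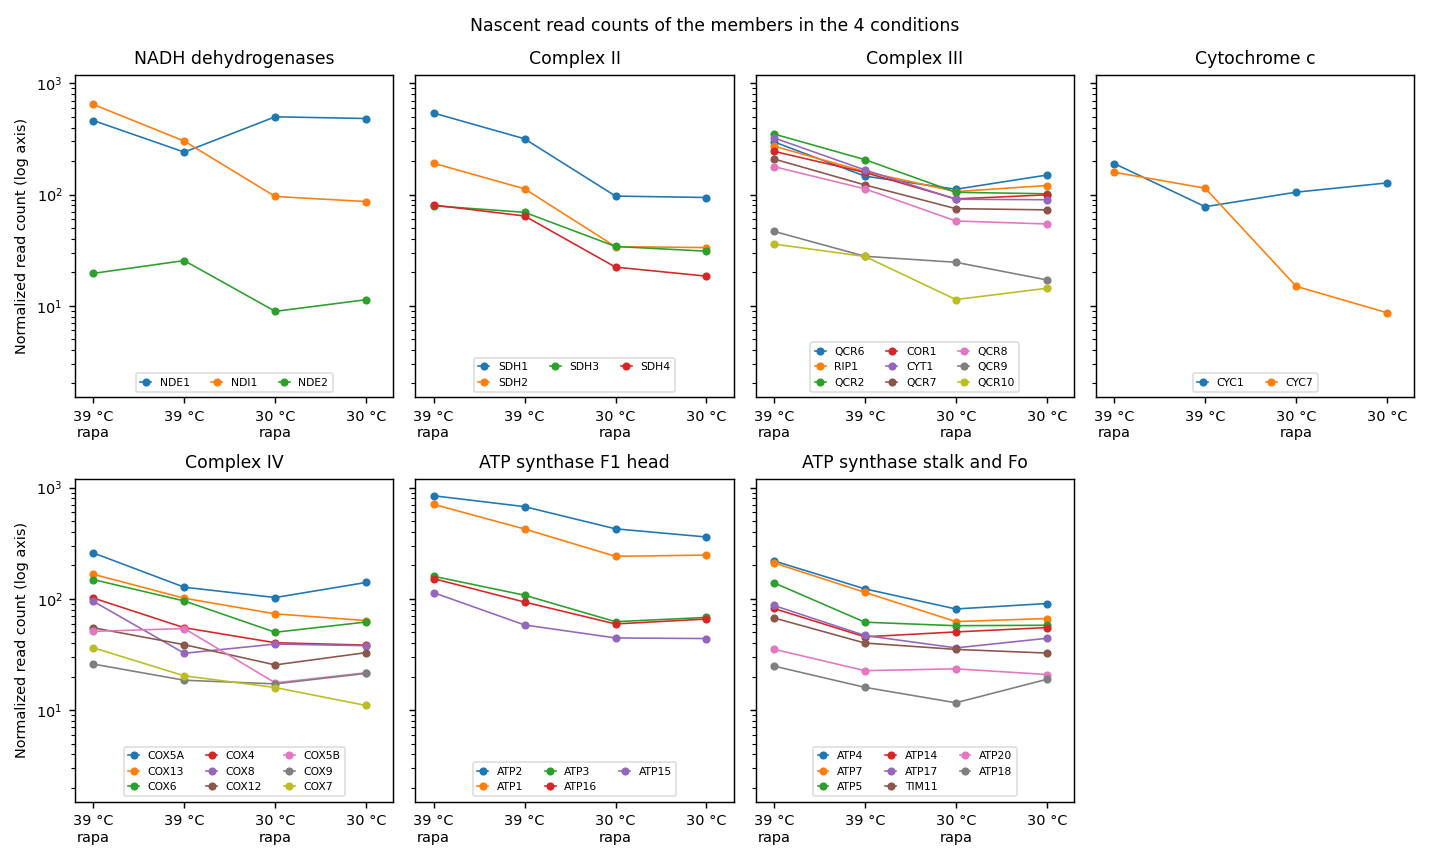
Deposited normalized read count of each subunit gene (log axis) in the 4 conditions, 1 panel per complex and 1 point per gene and condition, without replicates. The lines join the points of a gene, and in all but 3 genes (NDE1, NDE2 and COX5B) the point at 39 °C with rapamycin is the highest.

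The comparison of 39 °C with 30 °C without rapamycin asks how transcription of the respiratory genes responds to heat when Hsf1 can reach its targets. Complex II genes, NDI1, QCR8 and the minor isoform genes CYC7 and COX5B were at least 2-fold higher at 39 °C, while the genes of the ATP synthase stalk and membrane part had a median log2 ratio of 0.09. Of the 40 genes, 8 were past the limit upward and 0 downward. Over all kept genes 16.1% lay past it upward and 17.9% downward, so the share of higher subunit genes is close to the background. The median log2 ratio of the 40 was 0.63, a 1.55-fold difference, against 0.01 for all kept genes. A log2 ratio above 0 was found for 32 of the 40, against 50.4% of all kept genes. When every column was rescaled to the same total, the median of all kept genes moved to -0.17 and that of the 40 genes to 0.449.

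Among the NADH dehydrogenases, the genes of the internal enzyme and of the main external enzyme had heat ratios of opposite sign. NDI1 (YML120C, chromosome XIII, 28266 to 29807) encodes the internal enzyme, which oxidizes NADH of the mitochondrial matrix. It had 646 normalized reads at 39 °C with rapamycin and 302 at 39 °C without it, against 96.1 at 30 °C with rapamycin and 86.5 at 30 °C without it. Both values at 39 °C were above both values at 30 °C, and the heat ratio was 1.77 ± 0.11. NDE1 (YMR145C, XIII, 554793 to 556475), the main external enzyme for cytosolic NADH, had 463 at 39 °C with rapamycin, 241 at 39 °C without it, 500.1 at 30 °C with rapamycin and 483 at 30 °C without it. Here the value at 39 °C without rapamycin stood apart below the other 3, with a heat ratio of -0.996 ± 0.08, just inside the limit. NDE2, the other external enzyme, had 19.6 and 25.5 reads at 39 °C with and without rapamycin, against 8.91 and 11.3 at 30 °C with and without it. Its heat ratio, 1.00 ± 0.28, also lay just short of 2-fold, and its reads were the lowest per kilobase among all 40 genes in all 4 conditions.

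Complex II, succinate dehydrogenase, also belongs to the citric acid cycle. All 4 of its genes were at least 2-fold higher at 39 °C, with a median log2 ratio of 1.66. SDH1 (YKL148C, XI, 169207 to 171129), the flavoprotein gene, had 541 normalized reads at 39 °C with rapamycin, 317 at 39 °C without it, 96.9 at 30 °C with rapamycin and 94.1 at 30 °C without it. SDH2 (YLL041C, XII, 53131 to 53931), which encodes the iron-sulfur subunit, had 191 at 39 °C with rapamycin, 113 at 39 °C without it, 34.0 at 30 °C with rapamycin and 33.4 at 30 °C without it. Both catalytic subunit genes had nearly equal values at 30 °C with and without rapamycin and heat ratios of 1.72 ± 0.11 and 1.67 ± 0.17. SDH3 and SDH4, the membrane anchor genes, had heat ratios of 1.09 ± 0.19 and 1.65 ± 0.22. SDH4 had 80.5 and 64.1 reads at 39 °C with and without rapamycin, against 22.2 and 18.5 at 30 °C with and without it. SDH3 had 79.2 and 69.2 at 39 °C with and without rapamycin, against 34.1 and 30.9 at 30 °C with and without it. Per kilobase of gene the 4 were close to each other at 30 °C without rapamycin, from 33.8 for SDH4 to 51.8 for SDH3. At 39 °C with rapamycin they ran from 133 for SDH3 to 281 for SDH1.

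Complex III, the cytochrome bc1 complex, had a median heat ratio of 0.72, and 1 of its 9 genes passed 2-fold. That gene, QCR8 (YJL166W, X, 106434 to 106718), encodes a small subunit next to cytochrome b, and its ratio was 1.01 ± 0.15. QCR8 had 178 reads at 39 °C with rapamycin, 113 at 39 °C without it, 57.9 at 30 °C with rapamycin and 54.4 at 30 °C without it. QCR2, a core protein gene, followed at 1.00 ± 0.11, just under the limit, and the other core protein gene COR1 was at 0.65 ± 0.12. The electron carriers CYT1, cytochrome c1, and RIP1, the Rieske iron-sulfur protein, were at 0.87 ± 0.12 and 0.41 ± 0.11. The small subunit genes QCR10, QCR7 and QCR9 lay at 0.83, 0.72 and 0.62. QCR6, the acidic hinge protein gene, was the lowest of the complex at -0.03 ± 0.11.

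Complex IV, cytochrome c oxidase, had a median heat ratio of 0.49, and 1 of its 9 genes, COX5B, passed 2-fold. COX7 at 0.74 ± 0.29, COX13 at 0.64 ± 0.14, COX6 at 0.61 ± 0.15 and COX4 at 0.49 ± 0.19 were above 0 by more than 2 counting standard errors. COX12 at 0.22, COX5A at -0.14, COX9 at -0.18 and COX8 at -0.21 were within 2 counting standard errors of 0. No gene of the ATP synthase passed 2-fold. The 5 genes of its catalytic F1 head and central stalk had a median of 0.64. ATP2 was at 0.90 ± 0.06, ATP1 at 0.77 ± 0.07, ATP3 at 0.64 ± 0.14, ATP16 at 0.49 ± 0.15 and ATP15 at 0.38 ± 0.18. They encode the beta, alpha, gamma, delta and epsilon subunits. The 8 genes of the peripheral stalk and the membrane part had a median of 0.09, with ATP7 highest at 0.76 ± 0.14 and ATP14 lowest at -0.26 ± 0.18. ATP4, the subunit b gene of the peripheral stalk, was at 0.43 ± 0.13 and ATP17, the gene of the membrane subunit f, at 0.08 ± 0.19. Rescaled to equal totals, the median of these 8 genes turned to -0.088.

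**Figure D2:**
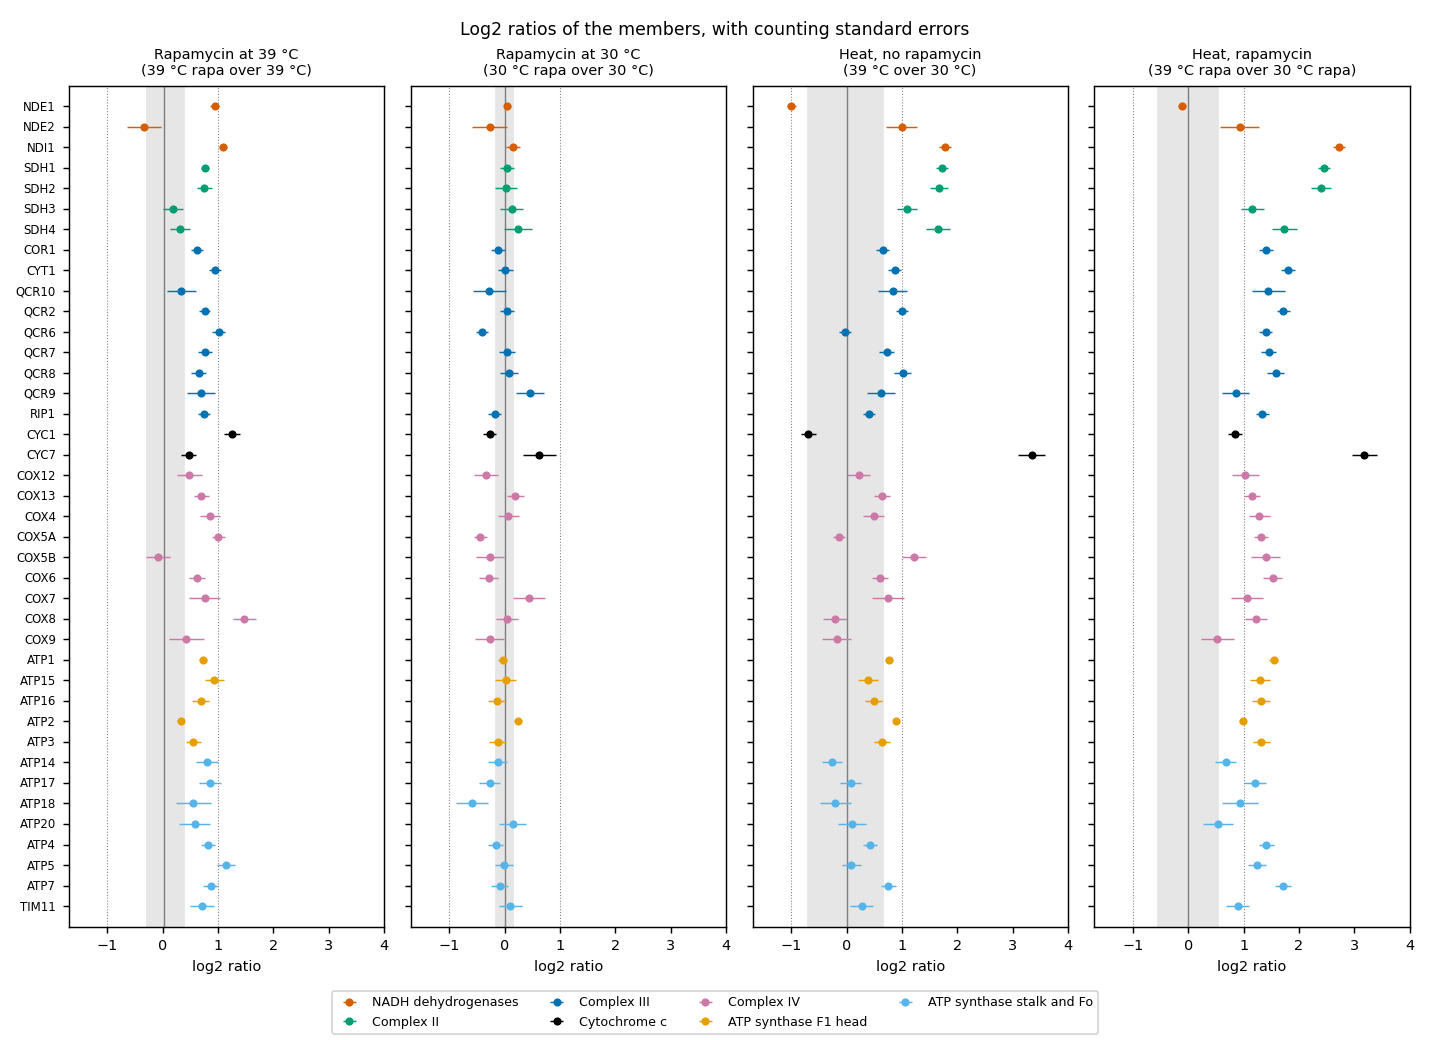
Log2 ratio (x axis) of each of the 40 genes in the 4 comparisons, coloured by complex, with counting standard errors as bars, the median and quartile range of the 4585 kept genes as a grey line and band, and 2-fold as dotted lines. With rapamycin at 39 °C, 38 points lie above 0, while with rapamycin at 30 °C they lie on both sides of it.

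The comparison of rapamycin with no rapamycin at 39 °C asks what the drug, taken to remove Hsf1 from the nucleus, does to these genes during heat shock. The ratios were small but nearly all in 1 direction: 38 of the 40 genes had a log2 ratio above 0, against 51.9% of all kept genes. COX8, CYC1, ATP5, NDI1, QCR6 and COX5A were at least 2-fold higher with rapamycin. These are 6 of the 40, with 0 past the limit downward, while over all kept genes 5.37% lay past it upward and 2.88% downward. The median log2 ratio of the 40 was 0.74, a 1.67-fold difference, against 0.02 for all kept genes. A ratio of at least 1.5-fold was found for 28 of the 40, or 70.0%, and for 15.6% of all kept genes. The ratio lay more than 2 counting standard errors above 0 in 33 of the 40 genes, against 18.8% of all kept genes. Both comparisons at 39 °C use the same values without rapamycin, so a low value there raises this ratio and lowers the heat ratio.

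COX8 (YLR395C, XII, 909729 to 909965), a small subunit gene of cytochrome oxidase, had the highest ratio of the 40. It had 95.045 reads at 39 °C with rapamycin, 32.4 at 39 °C without it, 39.2 at 30 °C with rapamycin and 37.9 at 30 °C without it. The value at 39 °C with rapamycin stood alone above the other 3, and its ratio to the value without rapamycin was 1.47 ± 0.21. ATP5 (YDR298C, IV, 1058176 to 1058814), which encodes the stalk protein OSCP at the top of the F1 head, had 139 at 39 °C with rapamycin, 61.7 at 39 °C without it, 57.3 at 30 °C with rapamycin and 57.9 at 30 °C without it. It showed the same shape, with 1 high value and a ratio of 1.14 ± 0.17. NDI1, whose values stand above, had a ratio of 1.09 ± 0.08 and differed from COX8 and ATP5 in being higher at 39 °C without rapamycin too.

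QCR6 (YFR033C, VI, 224326 to 224769) had 298 reads at 39 °C with rapamycin, 146 at 39 °C without it, 112 at 30 °C with rapamycin and 149.7 at 30 °C without it. COX5A (YNL052W, XIV, 531725 to 532186) had 259 at 39 °C with rapamycin, 127 at 39 °C without it, 103 at 30 °C with rapamycin and 140.4 at 30 °C without it. In these 2 genes rapamycin went with a higher value at 39 °C, at 1.01 ± 0.11 and 1.01 ± 0.12, and a lower one at 30 °C, at -0.41 ± 0.11 and -0.44 ± 0.12. NDE1, which like CYC1, COX8 and ATP14 had its lowest value at 39 °C without rapamycin, had a ratio of 0.94 ± 0.09.

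By complex, the medians with rapamycin at 39 °C were closer together than with heat. They were 0.94 for the 3 NADH dehydrogenase genes, 0.53 for complex II, 0.75 for complex III, 0.86 for cytochrome c, 0.70 for complex IV, 0.68 for the F1 head and 0.81 for the stalk and membrane part of ATP synthase. In complex II the catalytic genes SDH1 and SDH2 were at 0.76 ± 0.08 and 0.75 ± 0.13, and the anchor genes SDH4 and SDH3 at 0.31 ± 0.19 and 0.19 ± 0.18. In complex III the ratios ran from 0.34 for QCR10 to 1.01 for QCR6, with CYT1 at 0.95 ± 0.11. All 13 ATP synthase genes were above 0. The F1 head ran from 0.32 ± 0.06 for ATP2 to 0.93 ± 0.17 for ATP15, and the stalk and membrane part from 0.55 ± 0.32 for ATP18 to 1.14 for ATP5. ATP1 (YBL099W, II, 37053 to 38690) had 708 reads at 39 °C with rapamycin and 425 without it, a ratio of 0.73 ± 0.07. ATP2 (YJR121W, X, 647607 to 649142) had 845 reads at 39 °C with rapamycin and 675 without it. The 2 genes below 0 in this comparison were NDE2 at -0.34 ± 0.32 and COX5B at -0.08 ± 0.22, neither of them 2 counting standard errors away from it.

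Gene length bears on this comparison, since most of the 40 genes are short and short genes in general had higher ratios with rapamycin at 39 °C. Of the 40, 29 were at most 795 bases long, a bound that holds 885 kept genes in all. These 29 had a median ratio of 0.71, against 0.30 for the 856 other genes of that length. Above 0 were 28 of the 29 subunit genes, against 74.7% of the 885. At least 2-fold higher were 5 of the 29, against 9.94% of the 885. A smooth curve of the ratio on log2 length over the 4418 kept genes with an annotated length passed through 0.54 at 300 bases, 0.13 at 1000 bases and -0.20 at 3000 bases. Less this curve, the median of the 40 was 0.35 and 32 of them were above 0, against 50.6% of the kept genes with a length. Only NDI1, a gene of 1542 bases, was then still past 2-fold, at 1.12. That is 1 of the 40, against 3.76% of the kept genes with a length, so on this scale the share past 2-fold is not above the background. COX8, ATP5, CYC1, COX5A and QCR6 were at 0.88, 0.88, 0.77, 0.64 and 0.62. By complex, the medians less the curve were 0.98 for the NADH dehydrogenases, 0.28 for complex II, 0.50 for complex III, 0.38 for cytochrome c, 0.24 for complex IV, 0.35 for the F1 head and 0.35 for the stalk and membrane part.

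The 11 longer genes lie where the curve is lower. Their median ratio with rapamycin at 39 °C was 0.75, and 0.69 less the length curve. The 4 genes between 1608 and 2301 bases had a median of 0.75, against -0.09 for the 879 other genes of that length. The medians of the short and the longer subunit genes, 0.71 and 0.75 as measured, were 0.27 and 0.69 less the curve. In the heat comparison the length curve ran upward, from -0.30 at 300 bases to 0.17 at 3000 bases. Short and longer subunit genes had median heat ratios of 0.43 and 0.90, and less the curve 0.73 and 0.96. The median of all 40 was then 0.78 and the count of 2-fold higher genes 13 of 40, against 16.4% of the kept genes with a length. Less the curve, the stalk and membrane genes of ATP synthase had a median heat ratio of 0.40 and complex II 1.73.

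**Figure D3:**
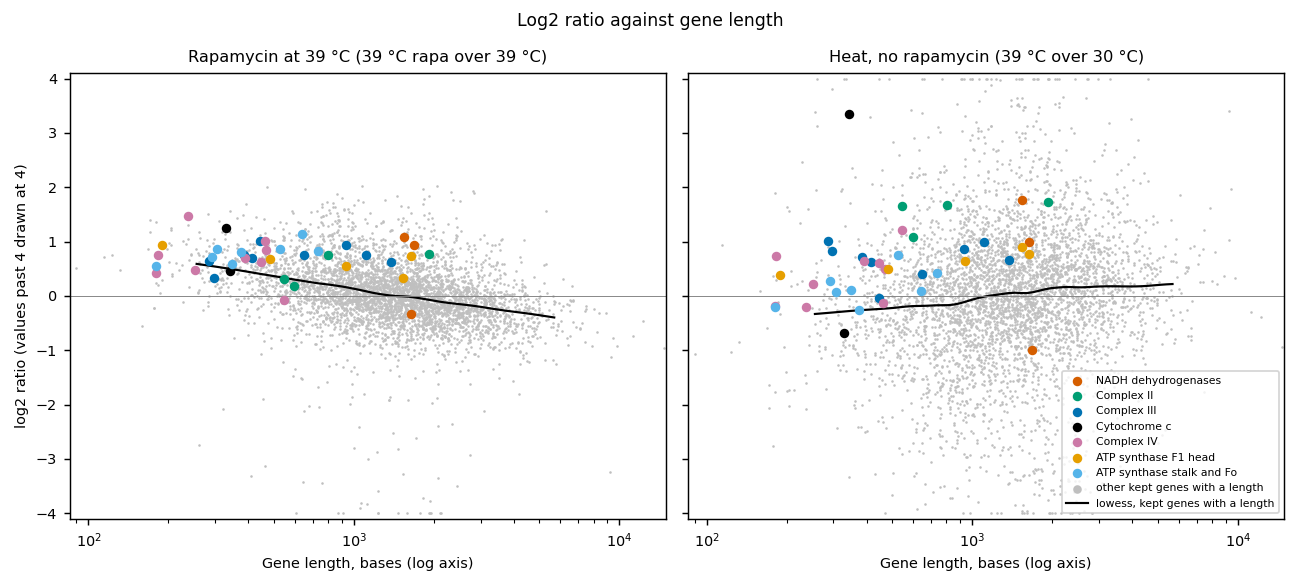
Log2 ratio (y axis) against gene length in bases (log axis) with rapamycin at 39 °C and with heat, for the 40 subunit genes (coloured by complex) and the other kept genes with an annotated length (grey, values past 4 drawn at 4). The black curve, the lowess over these 4418 genes, falls with length in the rapamycin comparison, through 0.54 at 300 bases and -0.20 at 3000 bases, while most subunit genes of any length lie above it.

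The comparison of rapamycin with no rapamycin at 30 °C asks what the drug, taken to remove Hsf1, does to the genes without heat shock. None of the 40 was past 2-fold. Over all kept genes 0.0436% lay past it upward and 0.371% downward, so a count of 0 among 40 genes is near the background. The median log2 ratio of the 40 was 0.00, with 20 genes above 0, where all kept genes had 50.3%. More than 2 counting standard errors from 0 were 6 of the 40, against 12.1% of all kept genes. These were CYC7 and ATP2 above it and QCR6, CYC1, COX5A and ATP18 below it. The widest were CYC7 at 0.63 ± 0.31 and ATP18, a small membrane subunit gene of ATP synthase, at -0.59 ± 0.28. ATP18 had 11.6 reads at 30 °C with rapamycin against 18.9 at 30 °C without it, and 24.9 and 16.0 at 39 °C with and without it. Its values are among the lowest of the 40. By complex, the highest and lowest were NDI1 at 0.15 and NDE2 at -0.27 among the NADH dehydrogenases, and QCR9 at 0.46 and QCR6 at -0.41 in complex III. COX7 at 0.44 and COX5A at -0.44 bounded complex IV, ATP2 at 0.24 and ATP16 at -0.14 the F1 head, and CYC1 stood at -0.27. The stalk and membrane part ran from ATP18 to ATP20 at 0.15. The 4 complex II genes were all slightly above 0, from 0.02 for SDH2 to 0.24 for SDH4, and 6 of the 8 stalk and membrane genes of ATP synthase were below 0.

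The rapamycin ratio was larger at 39 °C than at 30 °C in 38 of the 40 genes, against 51.1% of all kept genes. The median difference was 0.76 on the log2 scale, with quartiles of 0.55 and 0.93. It was at least 1 in 7 of the 40 genes, against 6.91% of all kept genes. Less the length curve the median difference was 0.432. The 2 genes where the ratio was not larger at 39 °C were CYC7, at -0.16 ± 0.34, and NDE2, at -0.07 ± 0.45.

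The comparison of 39 °C with 30 °C with rapamycin in both asks how the genes respond to heat under the drug, which is taken to remove Hsf1. Here 30 of the 40 were at least 2-fold higher, with 0 past the limit downward. Over all kept genes 12.3% lay past it upward and 12.8% downward. The median log2 ratio was 1.31, a 2.48-fold difference, against 0.00 for all kept genes, and 39 of the 40 were above 0, as were 2291 of the 4585 kept genes. Less the length curve the median was 1.17. The values with rapamycin at 39 °C also enter the comparison of rapamycin at 39 °C, so the 2 results are not independent.

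CYC7 at 3.18 ± 0.23, NDI1 at 2.71 ± 0.11, SDH1 at 2.45 ± 0.11 and SDH2 at 2.40 ± 0.18 were highest. All 4 complex II genes, the lowest of them SDH3 at 1.15 ± 0.21, and 8 of the 13 ATP synthase genes were at least 2-fold higher. CYT1 led complex III at 1.80 ± 0.12, and QCR9 was the only gene of that complex short of 2-fold, at 0.85 ± 0.25. COX6 led complex IV at 1.52 ± 0.16, while COX9 was at 0.52 ± 0.30. In ATP synthase ATP7 at 1.71 ± 0.15 and ATP1 at 1.54 ± 0.08 were highest, ATP2 was the lowest of the F1 head at 0.98 ± 0.06, and ATP20, a membrane subunit involved in dimer formation, was lowest at 0.53 ± 0.27. TIM11, which encodes another such subunit, was at 0.89 ± 0.21. CYC1 was at 0.84 ± 0.13, and NDE1 was the 1 gene below 0, at -0.11 ± 0.07.

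For 3 functions the 40 genes hold a pair of isoforms, and in each pair the minor isoform gained on the major one at 39 °C without rapamycin. CYC1 (YJR048W, X, 526335 to 526664) encodes the main cytochrome c of aerobic growth and CYC7 (YEL039C, V, 79636 to 79977) the minor form. CYC7 had 159 reads at 39 °C with rapamycin, 114 at 39 °C without it, 14.9 at 30 °C with rapamycin and 8.65 at 30 °C without it. Both values at 39 °C were far above both at 30 °C, a heat ratio of 3.34 ± 0.24, the highest of the 40 genes. CYC1 had 189.99 reads at 39 °C with rapamycin, 77.7 at 39 °C without it, 105 at 30 °C with rapamycin and 127 at 30 °C without it. Its heat ratio was -0.69 ± 0.14, and rapamycin at 39 °C went with a ratio of 1.26 ± 0.15.

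Per kilobase of gene, CYC7 stood at 0.806 of the CYC1 level at 39 °C with rapamycin (95% counting interval 0.666 to 0.975). The level ratio was 1.42 at 39 °C without rapamycin (1.15 to 1.74), 0.137 at 30 °C with rapamycin (0.0961 to 0.196) and 0.0657 at 30 °C without it (0.0431 to 0.10). CYC7 was above CYC1 only at 39 °C without rapamycin, and the intervals at 39 °C and 30 °C do not overlap.

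COX5A and COX5B (YIL111W, IX, 155222 to 155765) encode the alternative forms of cytochrome oxidase subunit V, of which COX5B is known as the form of low oxygen. COX5B had 51.0 reads at 39 °C with rapamycin, 54.1 at 39 °C without it, 17.6 at 30 °C with rapamycin and 21.6 at 30 °C without it. Both values at 39 °C were above both at 30 °C, with a heat ratio of 1.22 ± 0.21, and both rapamycin ratios were within 2 counting standard errors of 0. The per-kilobase level of COX5B was 0.167 of that of COX5A at 39 °C with rapamycin (0.128 to 0.220), 0.361 at 39 °C without it (0.288 to 0.452), 0.145 at 30 °C with rapamycin (0.104 to 0.202) and 0.131 at 30 °C without it (0.0993 to 0.173). NDE2 stood at 0.0434 of the NDE1 level at 39 °C with rapamycin (0.0288 to 0.0653) and 0.109 at 39 °C without it (0.0814 to 0.145). At 30 °C it stood at 0.0183 with rapamycin (0.0118 to 0.0283) and 0.0241 without it (0.0168 to 0.0346). With rapamycin in both, the NDE2 interval at 39 °C thus lay just above that at 30 °C, while those of COX5B overlapped. How reads shared by such related genes were assigned is not stated in the sources read, so these levels are uncertain where the copies are near-identical. The gene lengths also include any introns, which could lower the per-kilobase level of a gene that has them.

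**Figure D4:**
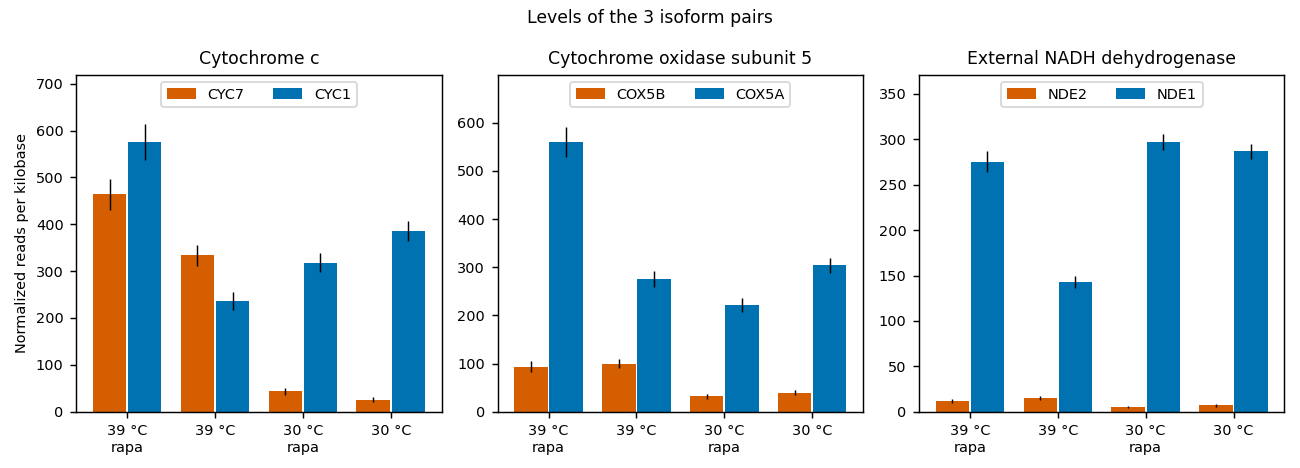
Normalized reads per kilobase of gene (linear axis from 0) of the minor (orange) and major (blue) isoform gene of 3 pairs in the 4 conditions, with counting standard errors as bars and no replicates. CYC7 exceeds CYC1 only at 39 °C without rapamycin, at 333 against 236, and COX5B and NDE2 stay below COX5A and NDE1 throughout.

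Between subunits of 1 complex, the span of levels per kilobase at 30 °C without rapamycin ran from 1.53-fold in complex II to 8.17-fold in complex III. At 30 °C without rapamycin the F1 head ran from 72.7 normalized reads per kilobase for ATP3 through 136 for ATP16, 151 for ATP1 and 233 for ATP15 to 234 for ATP2. The alpha and beta subunits are known to be present in more copies per enzyme than the other 3, and the levels of ATP15 and ATP2 were nearly equal. ATP15 is a gene of only 189 bases with 43.95 reads in this condition, and ATP2 one of 1536 bases. Levels per kilobase of genes so unlike in length may not be comparable. At 39 °C with rapamycin ATP3 was again lowest, at 170.4, and ATP15 highest, at 601. Complex III genes ran from 41.2 for QCR9 to 337 for QCR6 at 30 °C without rapamycin, an 8.17-fold span, and from 113 to 671 for the same genes at 39 °C with rapamycin. The divisor is the whole annotated gene, introns included, so a gene with an intron may show too low a level. Introns were not looked at, so the place of QCR9 and this span are uncertain. Genes of the stalk and membrane part were within 2.45-fold of each other at 30 °C without rapamycin, from 59.99 for ATP20 to 147 for ATP14.

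Other genes of respiration were read from lists of assembly factors, cofactor synthesis, carriers and regulators. With rapamycin at 39 °C no such list but the citric acid cycle reached the median of the subunit genes. The medians and counts over that comparison stand against 5.37% of all kept genes at least 2-fold higher. Unlike that background, the lists include genes under the filter. Of the 33 complex IV factors, for example, 22 passed it. The 13 citric acid cycle genes had a median log2 ratio of 0.77, all 13 above 0 and 1 at least 2-fold higher, IDH1 at 1.04, followed by CIT1 at 0.98. The 33 assembly and expression factors of complex IV had a median of 0.24 with 0 past 2-fold, RCF1 at 0.74 and COX19 at 0.69 being widest. The 10 factors of complex III had a median of 0.20, with 1 gene past 2-fold, CBS1 at 1.12, whose mean was under the filter, and CBS2 at 0.59. The 5 genes listed with complex II assembly, not all of them assembly factors, had a median of 0.43, led by FLX1 at 0.49 and SDH5 at 0.45. The 16 assembly factors and inhibitors of ATP synthase had a median of 0.13, with AEP3 at -1.38 and INH1 at 0.80. Of 8 heme synthesis genes none passed 2-fold and the median was 0.21, HEM3 at 0.98 and HEM2 at 0.67 being highest.

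The same comparison gave a median of 0.14 for the 10 measured ubiquinone synthesis genes, with COQ10 at 0.36 and CAT5 at 0.32. Among the 5 carriers of ADP and phosphate the median was 0.11, with PET9, the main ADP/ATP carrier gene, at 1.02 and MIR1, the phosphate carrier gene, at 0.61, and 1 of the 5 was past 2-fold. The 2 cytochrome c maturation genes CYC3 and CYC2 were at 0.11 and -0.02, and the subunit paralogs SHH3 and SHH4 at -0.34 and 0.33. A list of mitochondrial ribosomal protein genes was picked by symbol after the values were seen, so genes with other symbols may be missing. The 65 genes found had a median of 0.24 with 50 above 0 and 2 at least 2-fold higher. Less the length curve their median was 0.03, that of the 40 subunit genes 0.35 and that of the citric acid cycle 0.76. A list of 8 other electron donor genes, described below, had medians of 0.27 as measured and 0.30 less the curve, near that of the 40. All further lists were lower less the curve. No test of these differences was possible.

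With heat and no rapamycin, 16.1% of all kept genes were at least 2-fold higher, and the lists stood in another order. The lists again include genes under the filter. Citric acid cycle genes had a median of 0.73, with 5 of 13 past 2-fold upward and 1 downward. CIT1, the citrate synthase gene, was at 2.001. Ubiquinone synthesis had a median of 0.97 with 5 of 10 at least 2-fold higher, led by COQ6 at 1.67 and COQ3 at 1.43. The complex II assembly list had a median of 0.98 with 2 of 5 higher, SDH6 at 1.59 and SDH5 at 1.17, while FLX1 was lowest at -0.99. Complex III assembly at 0.06 had 0 of 10 past 2-fold, with CBP4 at 0.89 and CBP6 at 0.71. Complex IV assembly at 0.18 had 4 of 33 higher and 2 lower, with COA4 at 2.05 and PET117 at 1.55 widest. The ATP synthase assembly list at 0.48 had 3 of 16 higher, and heme synthesis at -0.31 had 2 of 8 higher, HEM14 at 1.32 and HEM15 at 1.14. Of the carriers PIC2 at 1.37 passed 2-fold and AAC1 was at 0.88. CYC2 and CYC3 were at 0.99 and -0.64, and SHH4 and SHH3 at 0.85 and -0.10.

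Among the regulators, the genes of the Hap complex did not share 1 direction. HAP4, which encodes the activating and glucose-controlled subunit, had 145 reads at 39 °C with rapamycin, 81.9 at 39 °C without it, 222 at 30 °C with rapamycin and 184 at 30 °C without it. Its heat ratio was -1.14 and its ratio with rapamycin at 39 °C was 0.80. HAP2, a DNA-binding subunit gene, had 27.8 and 36.4 reads at 39 °C with and without rapamycin, against 9.76 and 10.1 at 30 °C with and without it, a heat ratio of 1.60. ROX1, which encodes a repressor of low-oxygen genes such as COX5B, had 79.97 and 73.5 at 39 °C with and without rapamycin, against 176 and 189 at 30 °C with and without it. Its heat ratio was -1.33. HAP1 was at -0.56 with rapamycin at 39 °C. The 7 regulator genes had medians of -0.24 with heat and 0.12 with rapamycin at 39 °C. HAP4's heat value is given although HAP2 and ROX1 were wider, a choice made after the values were seen, and what part these regulators have in the subunit genes' values was not tested.

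**Figure D5:**
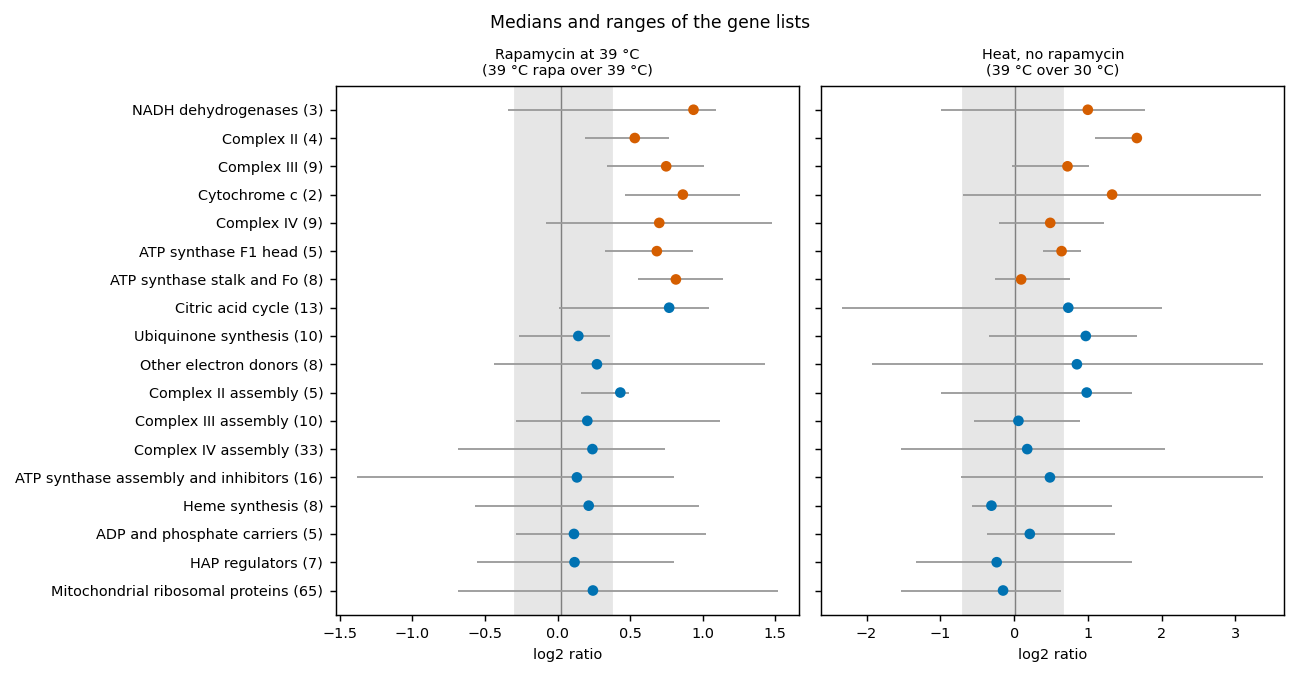
Median (point) and range (line) of the log2 ratios of each list with rapamycin at 39 °C and with heat, with the number of measured genes in parentheses, subunit genes in orange, other lists in blue, and the median and quartile range of all 4585 kept genes as a grey line and band. With rapamycin at 39 °C the subunit lists, from 0.53 to 0.94, and the citric acid cycle at 0.77 lie highest.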

How the data were processed

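Nascent RNA was measured in 4 conditions, with 1 sample each in the labels. The deposited table holds 1 signal value per gene and condition, a normalized read count that the authors averaged, per the file headers. HTSeq and genome build sacCer3 are named per the submitters' processing notes. The sources read do not name versions, aligner, strand setting or scaling method. Carry-over of mature RNA into the nascent fraction cannot be separated in these values. Columns were matched to conditions by their header abbreviations. The 3 Hsf1 binding samples were not analysed here.

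Between 97.1% and 100% of the distinct values under 6 in a column could be written, to within 0.0055, as whole multiples of 2 step sizes, so each column was read as a mean of 2 scaled libraries. That number is inferred. The steps gave the read totals and counting errors. A pseudocount of 2.851, or 0.1 of the median of all values, was added before log2 ratios were taken. Genes with a mean under the 20th percentile, 14.442, were left out of all-gene counts, 1147 in all. Lengths and coordinates are whole annotated genes of RefSeq assembly R64. They matched 5351 of 5732 genes and all 40 subunit genes, none of which overlaps another gene of that annotation. Genes in the deposited table without a match could still overlap. Length trends were fitted by lowess with a span of 0.3 (statsmodels 0.14.6, Python 3.11.15) and tested on simulated data. Level per kilobase is the value divided by this whole gene length, introns included.

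The 40 genes and the lists were chosen with earlier results of these data known. Every subunit gene is named with a value in at least 1 comparison. Subunit genes past 2-fold and the extremes of each complex were named, as were the widest 2 genes of each other list in the heat comparison and in that of rapamycin at 39 °C, except 1 item that is not reported here. BCA1, COQ11 and YJL045W matched no gene of the table, and COQ7 is in it as CAT5. Promoter motifs had been planned and were not examined, and no sequence was used here. Alternatives were another pseudocount, filter or scaling, removal of the length or level trend, and leaving out overlapping genes.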

Additional observations from a re-analysis of the deposited data

Results flagged for a closer look

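The rapamycin ratio had opposite signs at the 2 temperatures, each more than 2 counting standard errors from 0, in QCR6, CYC1 and COX5A. The share of all kept genes that meets this rule is not given here. Whether such genes are more frequent among the subunit genes than in the background is therefore not known. The ratio at 39 °C minus that at 30 °C was 1.42 for QCR6, 1.53 for CYC1 and 1.45 for COX5A. The parts were 1.01 at 39 °C and -0.41 at 30 °C for QCR6, 1.26 and -0.27 for CYC1, and 1.01 and -0.44 for COX5A. CYC1 also had heat ratios of opposite sign, 0.84 with rapamycin and -0.69 without it, a difference of 1.53 that follows from the same 4 values. With 1 value per condition these differences were not tested.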

How the results depend on the processing

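The median of the 40 genes stayed above 0 with heat, with rapamycin at 39 °C and with heat in rapamycin under all 8 settings, of which removal of the level trend was chosen after seeing the data. In those comparisons, in that order, the median was 0.492, 0.665 and 1.11 when the pseudocount was 0.5 of the median value, 0.449, 0.862 and 1.21 with equal column totals, 0.780, 0.349 and 1.17 less the length trend, and 0.476, 0.660 and 1.21 less the level trend. The difference of the rapamycin ratios was 0.432 less the length trend. The count of subunit genes at least 2-fold higher with heat was 5 with the larger pseudocount and 13 less the length trend, and that with rapamycin at 39 °C was 1 less the length trend and 3 less the level trend. NDE1 passed the lower limit with heat, a count of 1, when the pseudocount was 0.01 of the median value, with equal totals and less the length trend. Over all genes, the pseudocount at 0.5 of the median value gave 91 higher and 82 lower with rapamycin at 39 °C, 361 lower with heat in rapamycin, and 0 higher and 11 lower with rapamycin at 30 °C. The count of 2 higher in the last comparison was 10 with the smaller pseudocount, 5 without the filter and 0 at the 40th percentile. Of the 44 ratios of subunit genes past 2-fold over the 4 comparisons, 27 were past it in every setting that gave a value, and 0 changed sign. No paired analysis was possible because the labels give 1 sample per condition and the columns carry no replicate. Counting error limits genes with few reads, such as NDE2, ATP18 and COX9.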

Other observations

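In a list of 8 other electron donor genes outside the 40, not all of which feed the respiratory chain, CYB2 and GUT2 were widest with heat. CYB2, the lactate dehydrogenase gene that reduces cytochrome c, had 287 and 244 normalized reads at 39 °C with and without rapamycin, against 20.4 and 21.1 at 30 °C with and without it. GUT2, the mitochondrial glycerol-3-phosphate dehydrogenase gene, had 228 and 208 at 39 °C with and without rapamycin, against 28.7 and 30.9 at 30 °C with and without it. Their heat ratios were 3.37 and 2.64, and with rapamycin at 39 °C they were at 0.23 and 0.13. This list of 8 had a median heat ratio of 0.85, with 3 at least 2-fold higher and 1, CYB5 at -1.93, at least 2-fold lower, against 16.1% and 17.9% of all kept genes. In the rapamycin comparison at 39 °C its widest genes were CYB5 at 1.43 and DLD3 at 0.49.

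Among the regulators of ATP synthase, STF2 and STF1, named for stabilizing the inhibitor of the enzyme, had heat ratios of 3.38 and 3.12, while the inhibitor gene INH1 was at 0.61, near the median of 0.64 of the F1 head. STF1 had 97.2 and 56.4 reads at 39 °C with and without rapamycin, against 4.95 and 3.94 at 30 °C with and without it, and its values at 30 °C rest on few reads. AEP3, an expression factor for the mitochondrial ATP synthase genes, had 15.1 reads at 39 °C with rapamycin, 43.8 at 39 °C without it, 11.4 at 30 °C with rapamycin and 11.3 at 30 °C without it, a ratio of -1.38 with rapamycin at 39 °C.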
